A study of Homo sapiens with 8 samples.

Results

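The genes described here are 9 genes of the retinoic acid pathway, *RARA*, *RARB*, *CRABP1*, *CRABP2*, *CYP26A1*, *CYP26B1*, *CYP26C1*, *RARRES1* and *DHRS3*, chosen by name from the 64486 genes annotated by GENCODE on GRCh37. Each gene was read in 8 neuroblastoma (NB) cell lines, which are established cultures of tumor cells, by MBD-seq. In this assay sheared DNA is captured with the part of the protein MBD2 that binds methylated CpG, so that stretches of methylated CpG pile up into peaks. The *MYCN* oncogene is amplified (MNA) in N206, IMR-32, CHP-902R and LAN-2 (also spelled LA-N-2), whereas SJNB-1, SH-SY5Y, CLB-GA and SK-N-AS are labelled as not amplified and are called *MYCN* single copy. All lines were untreated, each line gave 1 library and 1 peak list, and the replicates of a group are its 4 lines. A line is a model of 1 tumor, so differences between the groups also hold differences between tumors. The peak lists tell where captured DNA was enriched, not what percentage of the molecules was methylated, and they hold no measure of expression. Because they hold no read counts either, the depth behind each list cannot be read from them. The study states the lowest and the highest read number of its lines but not which lines they belong to. A missing peak means that none was called, not that methylation is absent.

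The lists held 70816 to 112412 peaks, which together covered 52.2 to 61.0 Mb in MNA lines and 39.8 to 52.3 Mb in single copy lines. Within 1 Mb of *MYCN* the peaks covered 8.68 to 19.8% of the DNA in MNA lines and 1.87 to 4.76% in single copy lines, so that the lists go with the *MYCN* labels. DNA copy number at the 9 genes was not analysed here.

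Retinoic acid is made from vitamin A and acts through nuclear receptors, the RARs, which bind DNA together with RXRs at retinoic acid response elements. Inside the cell the small proteins CRABP1 and CRABP2 carry retinoic acid, and the cytochrome P450 enzymes of the CYP26 family break it down. NB cells are known to differentiate when they are given retinoic acid, and isotretinoin, a form of retinoic acid, is part of the treatment of high-risk disease. Several genes of the pathway are themselves induced by retinoic acid, among them *RARB*, *CYP26A1* and *DHRS3*, and methylation of the *RARB* and *RARRES1* promoters is well known in other tumor types.

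The sequences under the most shared peaks show what was captured. A peak core is the stretch of a merged region that lies under peaks of the largest number of lines, and it is printed below for 3 genes, 5′ to 3′ on the strand of the gene, on GRCh37, with each CpG in capitals. They are shown because they hold the most widely shared methylated sequence of the CYP26 family, of the *RARRES1* promoter and of the *CRABP2* promoter. The *CYP26C1* stretch (chr10:94821775-94822074, plus strand) lies in the gene 1184 to 1555 bp downstream of the transcription start site (TSS), where 6 lines had a peak over the whole 372 bp core. The *RARRES1* stretch (chr3:158450471-158450770, minus strand) comes from a core 675 to 75 bp upstream of the TSS under peaks of 3 lines, and the *CRABP2* stretch (chr1:156676107-156676406, minus strand) from a core 1190 to 573 bp upstream of the TSS, also under peaks of 3 lines. Long cores were trimmed to 300 bp around the centre of their part outside annotated UTRs.
CYP26C1: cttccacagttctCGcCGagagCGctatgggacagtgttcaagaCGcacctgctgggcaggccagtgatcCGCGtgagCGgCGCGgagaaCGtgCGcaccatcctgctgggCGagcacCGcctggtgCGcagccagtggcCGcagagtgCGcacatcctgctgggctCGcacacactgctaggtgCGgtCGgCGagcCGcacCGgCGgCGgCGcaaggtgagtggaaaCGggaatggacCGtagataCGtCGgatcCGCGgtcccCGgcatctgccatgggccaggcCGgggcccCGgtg
RARRES1: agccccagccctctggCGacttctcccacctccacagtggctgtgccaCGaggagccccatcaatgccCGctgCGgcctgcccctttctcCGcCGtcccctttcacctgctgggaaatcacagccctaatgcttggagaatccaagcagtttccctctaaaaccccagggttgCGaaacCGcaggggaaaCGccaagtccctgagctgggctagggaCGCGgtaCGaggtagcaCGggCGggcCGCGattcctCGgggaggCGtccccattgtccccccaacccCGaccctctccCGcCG
CRABP2: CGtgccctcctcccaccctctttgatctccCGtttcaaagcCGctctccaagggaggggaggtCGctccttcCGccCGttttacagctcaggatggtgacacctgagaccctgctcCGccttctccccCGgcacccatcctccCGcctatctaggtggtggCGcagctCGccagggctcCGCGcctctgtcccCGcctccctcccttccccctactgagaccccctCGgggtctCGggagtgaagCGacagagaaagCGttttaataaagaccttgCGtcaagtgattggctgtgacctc
The 300 bp of *CYP26C1* held 34 CpGs, against 21 in those of *RARRES1* and 19 in those of *CRABP2*. All of their 45 bp words, the length of a read, occur once in the genome.

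The retinoic acid response element best known from *RARB* and *CYP26A1* is a direct repeat of a 6 bp half-site with a spacer of 5 bp, called DR5. It was searched on both strands with half-sites of the AGGTCA type. The motif lies in the promoter, taken as 1500 bp upstream to 1000 bp downstream of the canonical TSS, in 2 of the 9 genes, *RARB* and *CYP26A1*, and in 135 of 20176 protein-coding genes (0.669%). Further matches were found near alternative TSS of *RARA* and *DHRS3*, when the windows of all TSS were searched. The share of 0.669% does not apply to these, and no share over all genes was computed for such windows. The 4 matches are printed on the strand on which they read as a direct repeat, with the half-sites in capitals.
RARB (chr3:25469701-25469717, plus strand): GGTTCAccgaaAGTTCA
CYP26A1 (chr10:94833560-94833576, minus strand): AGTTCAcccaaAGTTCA
RARA (chr17:38497905-38497921, plus strand): AGTTCAgcgagAGTTCA
DHRS3 (chr1:12655995-12656011, minus strand): GGTTCAgccacAGGTCA
No line had a peak over any of these 4 stretches. Peaks covered 1.28% (SJNB-1) to 1.97% (LAN-2) of the genome, so a short stretch mostly has none in a given line. The share of other DR5 matches under a peak was not computed. The match of *RARB* lies 45 bp and that of *CYP26A1* 82 bp upstream of the canonical TSS, and their nearest peaks were 6377 to 101781 bp away for *RARB* and 790 to 11449 bp away for *CYP26A1*, depending on the line. The matches of *RARB* and *RARA* hold 1 CpG each and those of *CYP26A1* and *DHRS3* hold 0. A second form of the element, DR2, with a spacer of 2 bp, was in 5.66% of the protein-coding promoters and in 0 of the 9.

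Because these genes have many annotated transcripts, a promoter peak was counted when it overlapped by at least 1 bp the stretch between 1500 bp before and 1000 bp after any TSS of the gene. By this count a promoter peak was present in 2 or more lines for each of the 9 genes, where the share among all protein-coding genes was 60.9% and among those with a CpG-rich promoter 69.1%. Of the 72 pairs of gene and line, 30 had a promoter peak, 17 in MNA lines and 13 in *MYCN* single copy lines. *CYP26C1*, *RARB* and *RARRES1* were covered in 5 lines, *CRABP1*, *CRABP2* and *DHRS3* in 3, and *CYP26A1*, *CYP26B1* and *RARA* in 2. None of the 9 had a promoter peak in 6 or more lines, whereas 21.6% of protein-coding genes did, and 3 had one in 5 or more, against 30.3%. IMR-32 had peaks at 6 of the promoters, SH-SY5Y at 5, LAN-2, N206 and CLB-GA at 4, CHP-902R and SK-N-AS at 3 and SJNB-1 at 1. SJNB-1 also had the shortest list, with 70816 peaks against 112412 in LAN-2, the longest, and the share of all protein-coding genes with a promoter peak ran from 33.2% in SJNB-1 to 40.9% in IMR-32.

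**Figure D1:**
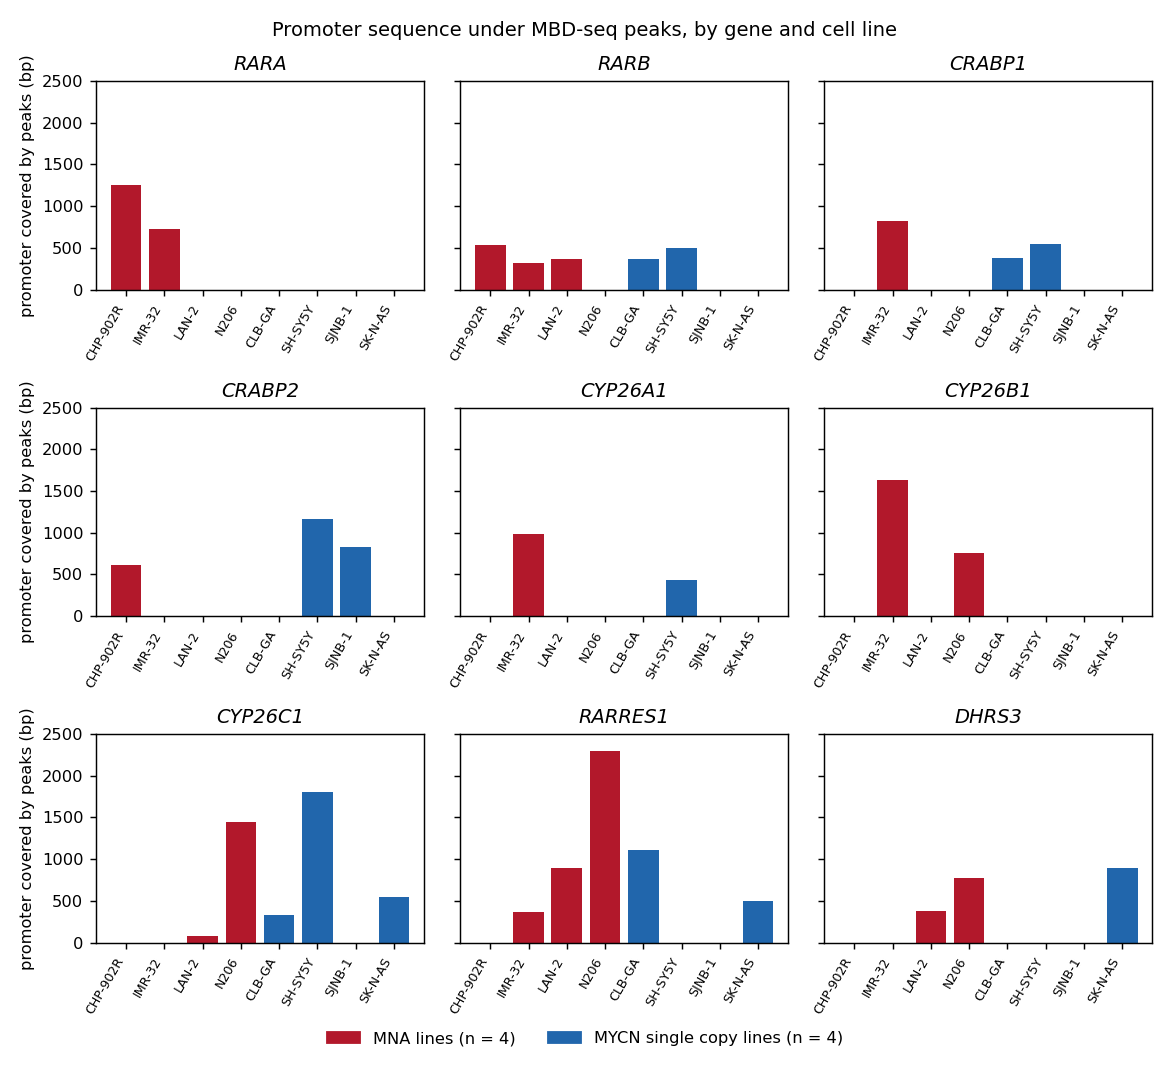
Length of promoter sequence under peaks (bp, vertical axis) in each of the 8 cell lines (1 library a line), with 1 panel for each gene, MNA lines in red and MYCN single copy lines in blue. N206 at RARRES1 has the longest cover, 2298 bp, and each gene has at least 3 lines at 0.

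With the canonical TSS alone, the picture narrowed. A peak in the canonical promoter was present in 5 lines for *CYP26C1* and *RARRES1*, in 3 for *CRABP1* and *CRABP2*, in 1 for *CYP26A1* and *DHRS3*, and in 0 for *RARA*, *RARB* and *CYP26B1*. Thus 4 of the 9 had a peak at the canonical TSS in 2 or more lines, where the share of protein-coding genes was 30.8%. When only peaks that scored 100 or more were kept, 2 of the 9, *RARA* and *RARRES1*, had a promoter peak at any TSS in 2 or more lines, where the share of protein-coding genes was 17.3%. The score is the one MACS gave each peak and rises as its p-value falls. It started at 50 in every list, and 18 of the 180 peaks at the 9 genes reached 100, against 16.2% of all peaks in the 8 lists (11.5% to 22.8% by line).

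Of the receptors, *RARA* (chr17:38465432-38513895, plus strand), the RAR fused to *PML* in acute promyelocytic leukemia, had promoter peaks in CHP-902R and IMR-32 only, at alternative TSS inside the gene. They covered 1260 bp of its 6 merged promoter windows in CHP-902R, 723 bp in IMR-32 and 0 bp in the other 6 lines. In both lines 1 peak lay between 33315 and 33876 bp and another between 40448 and 41116 bp downstream of the canonical TSS, both over a coding exon and UTR, with scores of 72.5 and 108 in CHP-902R and 72.5 and 120.1 in IMR-32. The canonical promoter had no peak, and the one nearest to its TSS was 6891 bp (CHP-902R) to 16878 bp (LAN-2) away. It was also the 1 promoter among the 9 that was not CpG-rich (GC content of at least 50% and CpG observed to expected of at least 0.6), as 64.3% of protein-coding promoters were, with 2.30 CpGs per 100 bp within 500 bp of the TSS.

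Within the *RARA* gene body all 8 lines had at least 1 peak, from 1 in N206 to 6 in CHP-902R. The body was covered to between 1.91% (N206) and 6.53% (CHP-902R) in MNA lines, with 3.22% for LAN-2 and 5.45% for IMR-32. In single copy lines it was covered to 4.31% for SK-N-AS, 2.95% for SH-SY5Y, 2.89% for SJNB-1 and 2.37% for CLB-GA. The values of the groups overlapped. Its most shared stretches were 2 regions with peaks in 4 lines each. The core of one (chr17:38510393-38510775), over coding sequence, was shared by SJNB-1, CHP-902R, SH-SY5Y and CLB-GA.

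*RARB* (chr3:24729378-25639423, plus strand), the receptor gene that carries a DR5 element at its own promoter, spans 910 kb in the annotation and has 20 TSS in 9 separate promoter windows. The window of the canonical transcript and 8 TSS (chr3:25467877-25471207) had no peak in any line, and the nearest peak lay 4553 to 100291 bp outside it. The promoter peaks counted for *RARB* lay in 3 other windows. One window, some 600125 bp upstream of the canonical TSS and the richest in CpG of the 9 (4.45 CpGs per 100 bp), had a peak in IMR-32 that covered 316 bp of its edge. The next, at an alternative TSS with peaks from 254025 to 253525 bp upstream, was covered in LAN-2 (367 bp) and SH-SY5Y (501 bp) over a coding exon and UTR. Another, with peaks 22420 to 24238 bp downstream of the canonical TSS, had intronic peaks in CHP-902R (532 bp) and CLB-GA (368 bp). N206, SJNB-1 and SK-N-AS had no promoter peak at *RARB*.

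**Figure D2:**
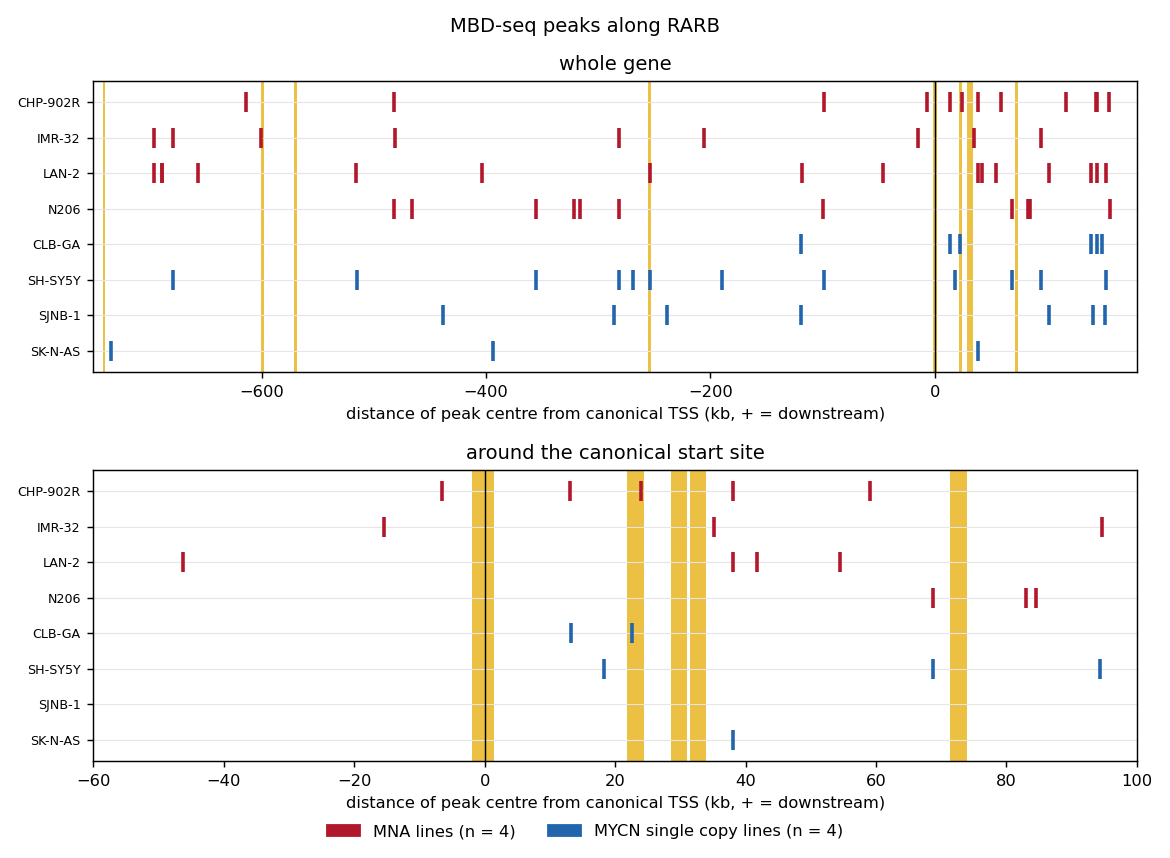
Peaks along RARB by cell line, as tick marks at the peak centre, with the distance from the canonical TSS in kb on the horizontal axis (negative values lie upstream), for the whole gene and for the part around the canonical TSS. Red ticks are MNA lines, blue ticks MYCN single copy lines, and yellow bands the 9 promoter windows. Of the 76 ticks none lies in the band at 0 kb.

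The body of *RARB* held 76 peaks over the 8 lines, 68 of them in introns alone. LAN-2 had 16, CHP-902R and SH-SY5Y 12, N206 11, IMR-32 9, SJNB-1 7, CLB-GA 6 and SK-N-AS 3. Per length the gene was sparsely covered, from 0.152% in SK-N-AS to 0.792% in LAN-2, where the cover of all protein-coding gene bodies ran from 1.85% to 2.95% of their length. The peaks merged into 54 regions, and 38 of these were found in 1 line, 10 in 2 lines and 6 in 3 lines. Of the 16 *RARB* cores shared by at least 2 lines, 7 consisted wholly of 45 bp words found once in the genome, against 21 of 26 cores at the other 8 genes. The core with the fewest had 50.6% such words, and where a word is repeated the position of a read taken alone is uncertain. The reads were paired, and the words were counted without regard to the other read of a pair.

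*CRABP1* (chr15:78632695-78640567, plus strand), which codes for a cytoplasmic carrier of retinoic acid, had promoter peaks in IMR-32, CLB-GA and SH-SY5Y. They covered 818 bp in IMR-32, 544 bp in SH-SY5Y, 375 bp in CLB-GA and 0 bp in the other 5 lines. In IMR-32 and CLB-GA the peaks overlapped upstream of the TSS, with a shared core of 375 bp at 740 to 366 bp before it (4.80 CpGs per 100 bp). In SH-SY5Y the peak lay downstream, 580 to 1862 bp into the gene over a coding exon, with a score of 105.6, higher than 86.3% of the peaks in its list. IMR-32 had a second promoter peak at an alternative TSS, 5503 to 6072 bp downstream of the canonical one. CHP-902R, N206, SJNB-1 and SK-N-AS had no peak in the promoter windows or the gene body, and LAN-2 had 1 intronic peak.

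*CRABP2* (chr1:156669398-156675608, minus strand), whose protein hands retinoic acid to RARs in the nucleus, had promoter peaks in CHP-902R, SH-SY5Y and SJNB-1. The covered length was 1168 bp in SH-SY5Y, 826 bp in SJNB-1, 618 bp for CHP-902R and 0 bp in the other 5 lines. These 3 peaks all lay upstream of the canonical TSS and shared the whole 618 bp from which the *CRABP2* sequence above was taken, with 6.80 CpGs per 100 bp. The peak of SH-SY5Y came as near as 139 bp to the TSS and scored 145.6, higher than 96.7% of its list, whereas those of CHP-902R (59.1) and SJNB-1 (52.3) were higher than 25.2% and 8.33%.

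Downstream, an intron of *CRABP2* held the second most shared region of the 9 genes, with a peak in CHP-902R, IMR-32, LAN-2, CLB-GA, SH-SY5Y and SK-N-AS. Of all regions of the genome, 1.80% were found in 6 lines. The 186 bp core of this intronic region had 2.69 CpGs per 100 bp, and 83.1% of its 45 bp words were found once in the genome. Only CHP-902R and SH-SY5Y had both the intronic and the promoter peak, SJNB-1 had the promoter peak alone, and N206 had neither.

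**Figure D3:**
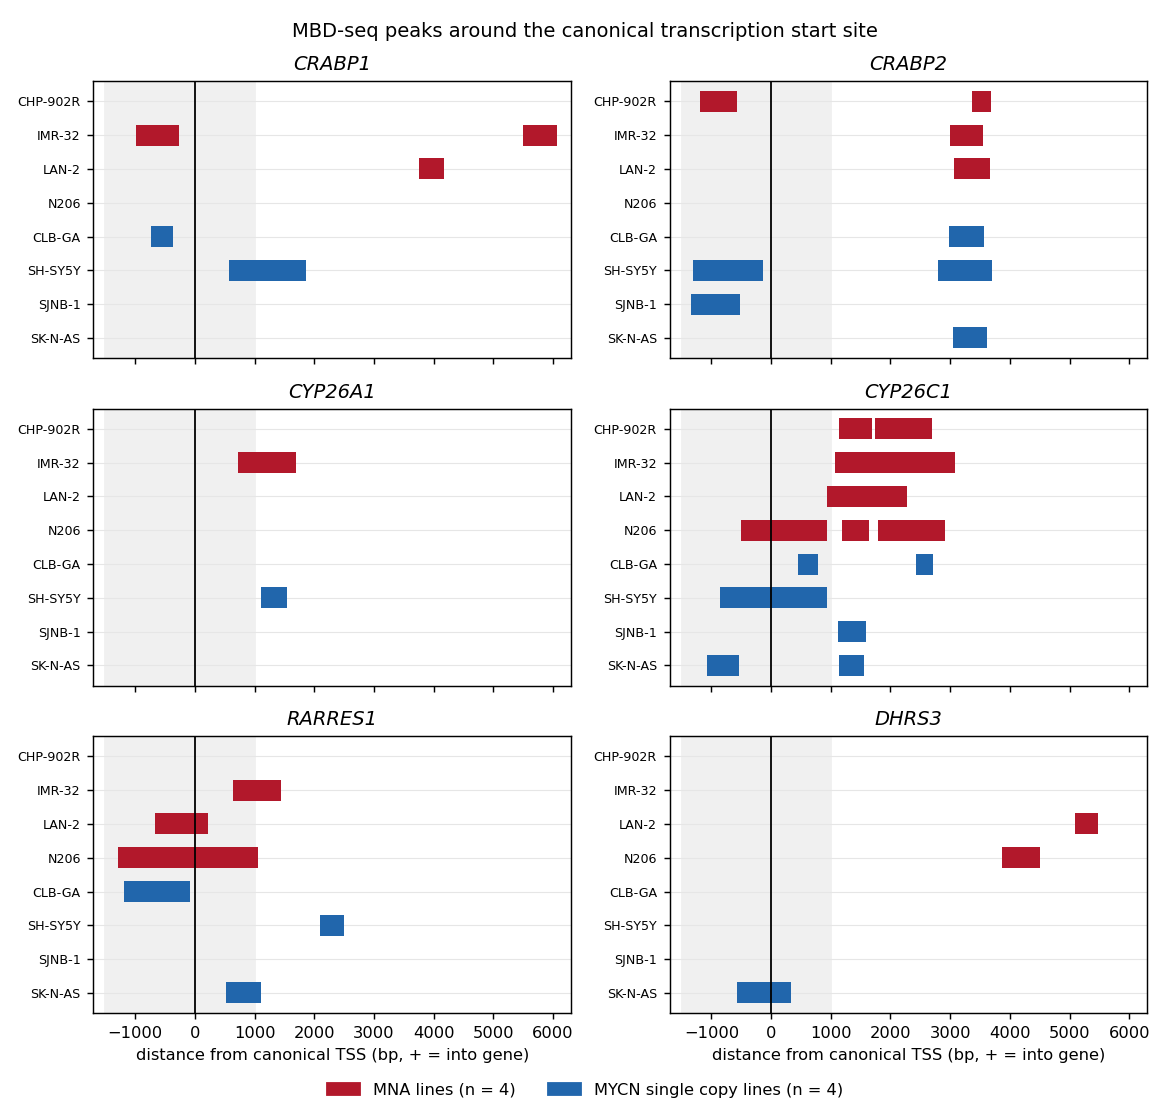
Peaks of each cell line around the canonical TSS of 6 genes, drawn to scale against the distance from the TSS in bp (positive values lie in the gene). Bars are peaks, red in MNA lines and blue in MYCN single copy lines, and grey marks 1500 bp upstream to 1000 bp downstream. Peaks at CRABP2 fall into a promoter group of 3 lines and an intronic group of 6 lines, and those at CYP26C1 crowd between 935 and 3073 bp.

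Among the degradation enzymes, *CYP26A1* (chr10:94833232-94837642, plus strand), the CYP26 enzyme best known as a retinoic acid target, was the gene with the fewest peaks. IMR-32 and SH-SY5Y had 1 peak each and the other 6 lines had none, at the promoter or in the body. The promoter cover was 981 bp in IMR-32 and 432 bp in SH-SY5Y, equal to 22.2% and 9.79% of the gene body, since both peaks lay inside the gene over coding exons. The peak of IMR-32 began 717 bp after the canonical TSS and that of SH-SY5Y 1105 bp after it, so that the DR5 element and the TSS themselves were outside. The whole SH-SY5Y peak lay within that of IMR-32. The centre of the shared 432 bp is printed because it is the 1 methylated stretch found at this gene (chr10:94834821-94835120, plus strand).
CYP26A1: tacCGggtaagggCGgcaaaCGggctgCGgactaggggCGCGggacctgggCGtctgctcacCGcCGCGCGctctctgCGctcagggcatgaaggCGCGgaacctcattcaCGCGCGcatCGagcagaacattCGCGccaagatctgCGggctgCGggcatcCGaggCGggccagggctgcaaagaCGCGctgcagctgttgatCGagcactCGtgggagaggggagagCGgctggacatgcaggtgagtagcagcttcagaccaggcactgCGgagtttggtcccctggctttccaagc
These 300 bp held 30 CpGs. The IMR-32 peak had a score of 158.6, the highest of all 180 peaks at the 9 genes and higher than 97.6% of the IMR-32 list.

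*CYP26B1* (chr2:72356367-72374991, minus strand), the second enzyme of the family, had promoter peaks in IMR-32 (1634 bp) and N206 (756 bp) and in no other line. Both lay between 3471 and 5503 bp downstream of the canonical TSS, in the window of an alternative TSS. Nearer to the canonical TSS, the single copy lines CLB-GA and SH-SY5Y shared a 307 bp intronic core, 1172 to 1478 bp downstream. It had 7.17 CpGs per 100 bp and lay past the 1000 bp edge, so these peaks do not count as promoter peaks. The gene body was covered to 13.1% in IMR-32, 6.64% in CHP-902R, 4.06% in N206 and 0% in LAN-2 among the MNA lines. The single copy lines had 6.70% in CLB-GA, 4.06% in SJNB-1, 2.34% in SH-SY5Y and 0% in SK-N-AS. Further downstream, 14514 to 14898 bp from the TSS, IMR-32, CLB-GA and SJNB-1 shared a 385 bp core over coding sequence with 5.71 CpGs per 100 bp. No peak at this gene scored 100 or more, and its highest was 98.4.

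*CYP26C1* (chr10:94820555-94829297, plus strand), a further enzyme of the family and the neighbour of *CYP26A1*, had the highest body cover of the 9 genes in all 4 MNA lines, whereas *CRABP2* had a higher one in CLB-GA, SH-SY5Y and SK-N-AS. All 8 lines had a gene body peak, which was also true of *RARA* and *RARB* and of 32.8% of protein-coding genes. Their peaks merged into a region of 4150 bp (chr10:94819479-94823628), the only one at the 9 genes that held a peak of every line. It was 1 of the 103 regions at the 9 genes (0.971%), and 0.641% of all regions of the genome held a peak of every line. At the promoter, covered lengths were 1799 bp in SH-SY5Y, 1440 bp in N206, 544 bp in SK-N-AS, 330 bp in CLB-GA and 76 bp in LAN-2, and 0 bp in CHP-902R, IMR-32 and SJNB-1. Only the peaks of SH-SY5Y and N206 crossed the TSS. The 76 bp of LAN-2 are the edge of a peak that starts 935 bp into the gene.

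No stretch of this region was common to all 8 lines. The core printed above was covered in CHP-902R, IMR-32, LAN-2, N206, SJNB-1 and SK-N-AS, whereas the SH-SY5Y peak ended 941 bp after the TSS, before the core, and the peaks of CLB-GA lay on either side of it. The core had 10.8 CpGs per 100 bp, the densest of the cores described here. A second stretch near the gene's end (chr10:94828847-94829084), over UTR, was found in LAN-2 and N206. It is the peak nearest to the *CYP26A1* TSS in these lines, 4566 bp from it in LAN-2 and 4448 bp in N206.

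*RARRES1* (chr3:158414681-158450278, minus strand), named as a gene induced by retinoic acid receptor ligands and known as a methylated gene in carcinomas, had the most CpG-dense promoter of the 9, with 10.5 CpGs per 100 bp, more than 85.0% of protein-coding promoters. Promoter peaks covered 2298 bp in N206, 891 bp in LAN-2, 370 bp in IMR-32 and 0 bp in CHP-902R. In the single copy lines they covered 1107 bp in CLB-GA and 500 bp in SK-N-AS, and 0 bp in SH-SY5Y and SJNB-1. The position of the peaks differed between lines. Those of N206 (1282 bp upstream to 1055 bp downstream) and LAN-2 (675 bp upstream to 215 bp downstream) crossed the TSS, that of CLB-GA lay upstream, ending 75 bp before it, and those of IMR-32 and SK-N-AS lay in an intron, starting 646 and 516 bp after it. Hence 3 lines shared the upstream core printed above, and no base was under the peaks of all 5. The N206 peak scored 139.2 and the SK-N-AS peak 124.8, higher than 96.5% and 95.7% of their lists.

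Further into *RARRES1* the peaks were intronic and mostly found in 1 line each, in 8 of its 12 regions. SJNB-1 had no peak in the gene, and the nearest to its TSS was 37050 bp away. Antisense and neighbouring transcripts, among them *MFSD1*, are annotated in the promoter windows of *RARRES1*, and a peak there cannot be given to one of them. The same limit holds for the other members except *RARB*, for example with *EXOC6* at *CYP26C1* and *RARA-AS1* at *RARA*.

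*DHRS3* (chr1:12627939-12678216, minus strand) codes for a reductase that turns retinaldehyde back into retinol and so lowers the supply for retinoic acid synthesis. Promoter peaks covered 894 bp in SK-N-AS, 771 bp in N206 and 383 bp in LAN-2, and 0 bp in the other 5 lines. SK-N-AS had the only peak over the canonical TSS, from 564 bp upstream to 329 bp downstream with 8.05 CpGs per 100 bp. The peaks of N206 and LAN-2 were intronic, 20756 to 21526 bp downstream, near an alternative TSS and its DR5 match, and ended 678 bp or more from that match. The shared core of these 2 intronic peaks consisted to 59.6% of 45 bp words found once in the genome. In the body LAN-2 and N206 had 6 peaks each and covered 5.78% and 8.93%, SH-SY5Y covered 4.12%, SK-N-AS 2.27%, CHP-902R 1.79%, CLB-GA 1.76%, IMR-32 0.716% and SJNB-1 0%. LAN-2, N206, CLB-GA and SH-SY5Y shared a 567 bp core over a coding exon (chr1:12638754-12639320).

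Over the 9 genes the lists held 180 peaks, of which 34 touched a promoter window and 121 lay in introns alone. Merged over the lines they formed 103 regions, and 61 of these (59.2%) were found in 1 line, close to the 56.2% among all 369287 regions of the genome. Peaks in the promoter windows had a median of 4.69 CpGs per 100 bp (range 1.504 to 9.72, 34 peaks), and the peaks elsewhere in the genes a median of 2.59 (range 0.758 to 10.4, 146 peaks). The median of all peaks in the 8 lists was 2.66. At *CYP26C1* the density was higher in the body, with a median of 9.12 for 10 peaks, than in the promoter, with 6.61 for 5 peaks, and at *CYP26B1* both medians were close (5.42 for 8 peaks and 5.40 for 2). The protein domain used for the capture binds methylated CpG, and peak calls therefore also depend on how many CpGs a fragment holds.

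**Figure D4:**
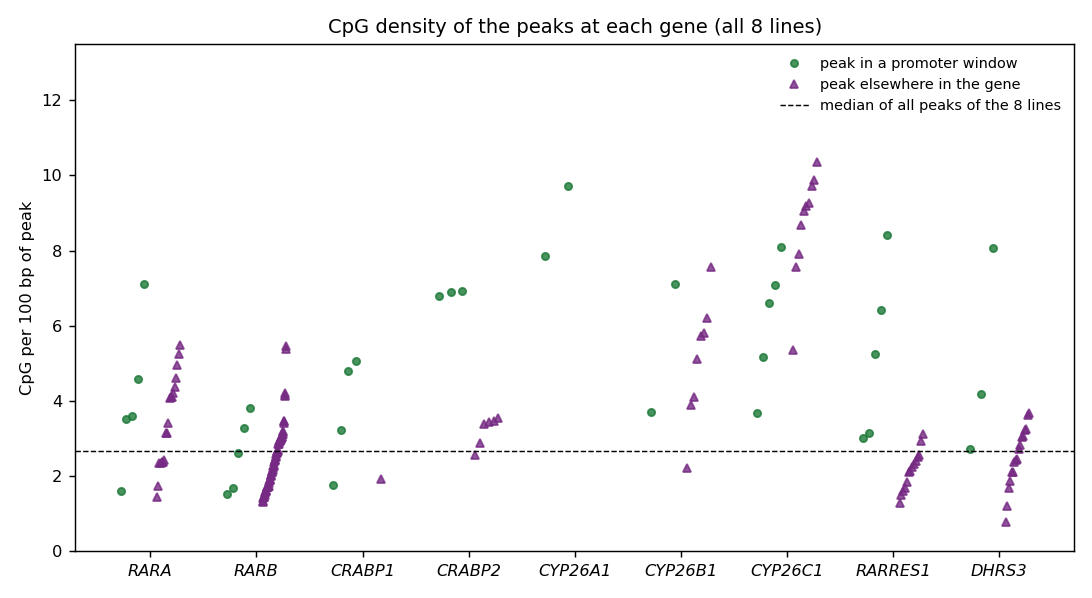
CpGs per 100 bp (vertical axis) of each of the 180 peaks at the 9 genes over the 8 lines, as green circles for peaks that touch a promoter window and purple triangles for peaks elsewhere. The dashed line is the median of all peaks, 2.66, and the points of CYP26A1 and CYP26C1 all lie above it.

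The design implies a comparison of MNA with *MYCN* single copy lines. For each gene of the annotation the number of lines with a peak was compared with Fisher's exact test and the covered length or percentage with a permutation test over the 70 splits of 4 against 4 lines, both exact and two-sided. The smallest possible p is 0.0286. After Benjamini-Hochberg adjustment over all genes tested, 0 genes passed 0.05 in any of the 4 tests, and the lowest adjusted p was 1. At an unadjusted p under 0.05 there were 127 genes for promoter peak presence (0.372% of those tested), 77 for gene body peak presence (0.27%), 436 for promoter covered length (1.22%) and 760 for gene body covered percentage (2.04%). With 4 lines a group a single gene can therefore not pass an adjustment over 28534 to 37205 genes.

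None of the 9 genes separated the groups by the presence of a promoter peak (4 lines of one group and 0 of the other), a pattern that 0.146% of all annotated genes had with MNA lines covered and 0.0512% with single copy lines covered. *CYP26B1* and *RARA* had promoter peaks in 2 MNA lines and 0 single copy lines, each with p = 0.429 in Fisher's exact test. At *CYP26B1* the single copy lines CLB-GA and SH-SY5Y had peaks just past the edge of the canonical promoter window, as described above. The other 7 genes differed by at most 1 line, with p = 1 in the same exact test. By gene body peaks none of the 9 separated them either (0.0884% of all genes with MNA lines covered, 0.031% with single copy lines covered). Promoter covered lengths overlapped between the groups for all 9 genes, where they did not overlap in 0.895% of the genes with a promoter peak with MNA lines higher and in 0.321% with single copy lines higher. For *RARRES1*, the gene with the longest cover, they were 889.8 ± 1007 bp in MNA lines and 402 ± 526 bp in single copy lines (SD, n = 4 each), a difference smaller than the spread between lines (exact permutation test, two-sided, p = 0.543, adjusted p = 1).

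One gene body separated the groups. The body of *CYP26C1* was covered to 33.5% in N206, the highest, then to 22.8% (IMR-32), 17.99% (LAN-2) and 17.2% (CHP-902R). The single copy lines followed with 10.8% (SH-SY5Y), 7.18% (CLB-GA), 5.35% (SJNB-1) and 4.71% (SK-N-AS). Thus all MNA lines were above all single copy lines, as in 1.7% of the genes with a body peak (0.339% had all single copy lines above), and the means were 22.9 ± 7.50% and 7.01 ± 2.72% (SD, n = 4 each). The difference of 15.9 percentage points had p = 0.0286 in the two-sided exact permutation test, the smallest it can give, and an adjusted p of 1. Leaving out any 1 line kept it between 12.4 and 17.8 points. The total length under peaks in the genome, given above, was also larger in all but 1 of the pairings of an MNA with a single copy line, and its part in the result was not tested. With the 70816 highest scoring peaks of each line the difference was 12.6 percentage points and the same exact permutation test gave p = 0.171. Among peaks that scored 100 or more, where 1 line had a peak in the gene, the direction turned (−2.69 percentage points, exact permutation p = 1). At the promoter of *CYP26C1* the direction was the other way, with a mean cover of 379 ± 708 bp in MNA lines. The single copy lines had 668 ± 786 bp there (SD, n = 4 each, two-sided exact permutation test, p = 0.543).

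**Figure D5:**
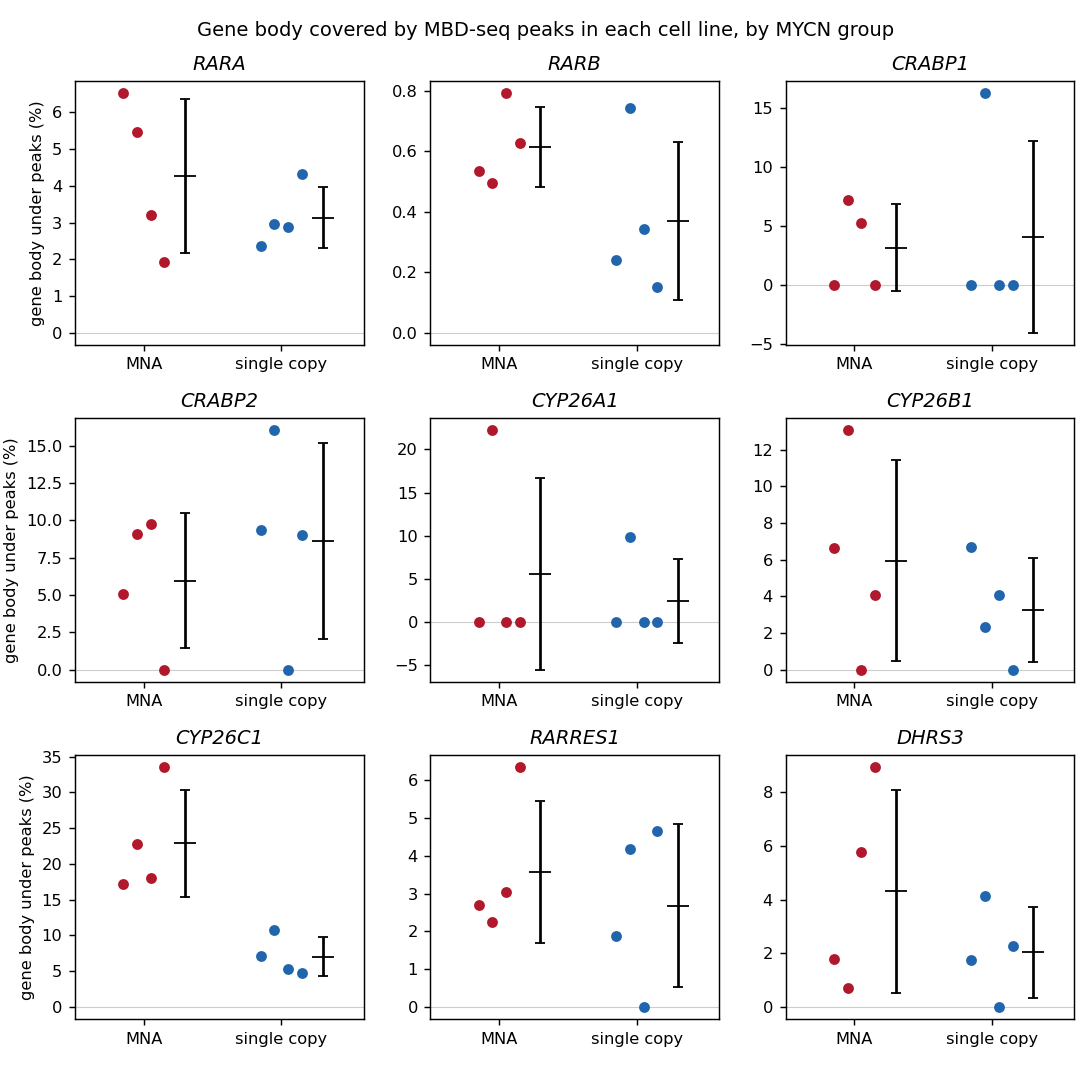
Percentage of the gene body under peaks (vertical axis, a scale for each panel) in each line, with the 4 MNA lines in red and the 4 MYCN single copy lines in blue, and the mean with its SD (n = 4) as a black line and bar beside each group. At CYP26C1 the MNA lines lie between 17.2% and 33.5% and the single copy lines between 4.71% and 10.8%, and at the other 8 genes the groups overlap. Error bars below 0 come from the SD and are no measured values.

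For the receptor *RARB*, body cover was 0.612 ± 0.132% in MNA lines and 0.369 ± 0.260% in single copy lines (SD, n = 4 each), which overlapped at SH-SY5Y with 0.741% (two-sided exact permutation test, p = 0.143, adjusted p = 1). Leaving out SH-SY5Y, the only single copy line in the range of the MNA lines, gave a difference of 0.368 percentage points at *RARB*. The groups then separate because the overlapping line was removed, so this is no further support for a difference. The body cover of *RARA* was 4.28 ± 2.09% and 3.13 ± 0.830% in the same order, with p = 0.343 (adjusted p = 1) in this exact test. For *DHRS3* it was 4.30 ± 3.77% and 2.04 ± 1.69%, with p = 0.286 (adjusted p = 1) in this exact test. The other 5 genes had p of 0.543 to 1.

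A wider list of 24 genes of the pathway was read in the same way. A promoter peak was found in 2 or more lines for 17 of these (70.8%). Among protein-coding genes the share was 60.9%, and among those with a CpG-rich promoter 69.1%. In 6 or more lines one was found for 6 of the 24 (25%), against 21.6% of protein-coding genes. The median was 3.5 lines, against 3 for the 9 genes, 2 for all protein-coding genes and 3 for those with a CpG-rich promoter. Among the receptors *RXRA* had a promoter peak in 6 lines, *RARG* in 3, and *RXRB* and *RXRG* in 1. *LRAT*, whose enzyme stores retinol as retinyl esters, was the 1 gene covered in all 8 lines, with 1077 bp (SJNB-1) to 1798 bp (IMR-32) of its promoter windows. *STRA6*, the retinol uptake receptor, had a promoter peak in 6 lines. *FABP5*, a fatty acid binding protein that also binds retinoic acid, and *STRA8*, a germ cell gene induced by retinoic acid, had one in 7 lines each. With the canonical TSS alone the count was 0 lines for *STRA6* and 1 for *RXRA*, against 8 for *LRAT* and 7 each for *FABP5* and *STRA8*. Some covers were short, such as 60 bp of *STRA6* in N206 and 52 bp of *RXRA* in LAN-2. The retinol dehydrogenase gene *RDH11* had a promoter peak in 0 lines.

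*RARRES2* (chr7:150035406-150038751), which codes for the secreted protein chemerin, was the 1 gene of the 24 that separated the groups. Its promoter was covered over 1411 bp in CHP-902R, 835 bp in N206, 258 bp in LAN-2 and 188 bp in IMR-32, and over 0 bp in each single copy line. Peaks in all 4 MNA lines and 0 single copy lines gave p = 0.0286 in Fisher's exact test, with an adjusted p of 1, and 0.146% of all annotated genes had this pattern. The covered length was 673 ± 571 bp against 0 bp (SD, n = 4, exact permutation p = 0.0286, adjusted p = 1). This p follows from the presence of the peaks and is no second support. Covered lengths did not overlap, with MNA lines higher, in 0.895% of the genes with a promoter peak. Inside the gene SH-SY5Y and CLB-GA were covered to 17.5% and 10.9%, and the body cover of the groups overlapped (LAN-2 had 7.71%, exact permutation p = 0.0857).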

How the data were processed

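The data are MBD-seq of 8 NB cell lines with 1 library each. The authors sequenced the captured DNA as paired reads of 45 bp, mapped them on GRCh37 with Bowtie 0.12.7 and called peaks with MACS in every line on its own. The options of the peak caller and an input control were not given in the sources used here. Each deposited peak has coordinates and the authors' MACS score, taken to be -10 times the log10 of the p-value because the lowest score is 50 in every list, which would be 1e-05. The score was used only to rank or filter peaks within a list.

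Overlaps with promoters and gene bodies were computed (scipy 1.17.1, numpy 2.4.6, Python 3.11.15) on all 64486 genes of GENCODE release 44 in GRCh37 coordinates. Peak positions were checked against the chromosome ends of GRCh37, and 0 peaks lay outside. Sequences were read with pysam 0.24.0 and figures drawn with matplotlib 3.10.9. The *MYCN* groups were taken from the labels and compared with two-sided Fisher's exact tests and exact permutation tests, with Benjamini-Hochberg adjustment over all genes tested. On simulated lists, where 200 of 64486 genes were given a peak in each MNA line and in no other, the counting of overlaps found all 200 for promoters and for gene bodies with the right direction and an unadjusted p under 0.05. This checked the overlap code and not the power, since with 4 lines a group no single gene can pass the adjustment. The lines are separate cultures, so p-values measure the spread between lines. Genes were named as the 9 members, as genes of a wider list of 24 that had a promoter peak in at least 6 lines or separated the groups, with examples and the receptor genes of that list beside them, and as the 2 genes most alike to a member. Some items that these rules chose are not reported here. The members and lists were chosen with earlier results of these data known. Alternatives were a score of at least 100, an equal number of peaks in each line (70816), an overlap of 100 bp, the peak midpoint, a window to 500 bp downstream, other TSS sets, bodies without promoters and each line left out. The counts of sequence tags, arrays and MSP data of the study were not analysed here.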

Additional observations from a re-analysis of the deposited data

Results flagged for a closer look

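Within each *MYCN* group of 4 lines, the promoter cover and the body cover of the 9 genes were searched for a line that stood apart, by the ratio of its gap to the nearest other line over the range of the group, against Dixon's 95% limit. Chance gives such a line in about 1 in 20 groups of normally spread values, and 9 of 36 were found. In 8 of the 9 the ratio was 1 because 1 line had a peak and the other 3 had none, so these values repeat the presence of a single peak.

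Both covers of *CYP26A1* stood apart in both groups (ratio 1 each), by IMR-32 with 22.2% of the body and 981 bp of the promoter, and by SH-SY5Y with 9.79% and 432 bp. At *CRABP1*, IMR-32 stood apart in the promoter (818 bp, ratio 1) and SH-SY5Y in the body (16.3%, ratio 1). The promoter of *CRABP2* was covered in CHP-902R alone among MNA lines (618 bp, ratio 1), and that of *DHRS3* in SK-N-AS alone among single copy lines (894 bp, ratio 1). At the *CYP26C1* promoter N206 had 1440 bp and the other MNA lines 0 to 76 bp (ratio 0.947).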

How the results depend on the processing

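The counts depended most on the score of the peaks and on the choice of TSS. When only peaks that scored 100 or more were kept, 2 genes had a promoter peak in 2 or more lines, and 9 pairs of gene and line had a promoter peak and 17 a gene body peak. With the canonical TSS alone these were 4 genes and 18 promoter pairs. The other alternatives kept the counts within 1.5 times. With single lines left out, 6 to 9 genes had one in 2 or more lines, and the pairs were 24 to 29 for promoters and 46 to 51 for bodies. No gene of the 9 separated the groups by promoter peaks, and none passed an adjusted p of 0.05, under any alternative. Of 387 comparisons of single genes under an alternative, 326 kept their direction, 29 turned, in 17 the difference became 0, in 11 it arose from 0 and in 4 it was 0 in both. None of these genes was past the adjusted threshold in any. The cause was not tested.

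The differences below are MNA minus single copy. With a score of at least 100 the body cover of *CYP26C1* turned to -2.69 percentage points and that of *DHRS3* to -0.496. With lists cut to one length, promoter cover of *DHRS3* was -30.8 bp, and body cover was -0.286 points for *CYP26B1* and -0.581 for *RARRES1*. By peak midpoint the promoter cover of *CRABP1* was 84.5 bp and the body cover of *RARRES1* -0.0442 points, and with the window to 500 bp downstream the former was 99.8 bp. At the canonical TSS the differences of *DHRS3* were -25 percentage points in the share of lines with a promoter peak and -223.5 bp in cover. Without the promoter windows, body cover was -0.730 points for *CYP26B1* and 0.733 for *CRABP1*.

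With single lines left out, the difference in promoter cover ran from -229.8 to 79.5 bp for *CRABP1* (79.5 bp without SH-SY5Y, 42.9 bp without CHP-902R, LAN-2 or N206, 23.2 bp without CLB-GA), from -108 (without IMR-32) to 245.2 bp for *CYP26A1*, from -95.8 to 288.5 bp for *DHRS3* (-95.8 bp without N206, -9.5 bp without CLB-GA, SH-SY5Y or SJNB-1) and from -642.9 to 87.7 bp for *CYP26C1* (87.7 bp without SH-SY5Y). The difference in body cover ran from -2.31 to 3.13 points for *CRABP1* (3.13 without SH-SY5Y, 0.101 without CHP-902R or N206), from -2.45 (without IMR-32) to 5.56 for *CYP26A1* and from -0.0290 to 1.55 for *RARRES1* (-0.0290 without N206, -0.00117 without SJNB-1). That of *CYP26C1* was 12.4 to 17.8 points, with adjusted p of 0.912 to 1. No paired analysis was possible because the lines are separate cultures and no MNA line is matched to a single copy line. With no read counts in the lists, depth limits what a missing peak can show.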

Other observations

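For the 6 genes with promoter peaks in 3 to 6 lines, the 2 protein-coding genes most alike in promoter cover over the 8 lines were looked up among 14904 genes with a promoter peak, leaving out genes within 1 Mb. Among these were *TRAIP* (Pearson r = 0.976) for *CYP26C1*, *FAM3D* (0.957) and *ASAH1* (0.949) for *RARB*, and *TMEM102* (0.999) and *PRMT3* (0.992) for *CRABP1*. For *CRABP2* they were *CPA5* (1.000) and *ZDHHC23* (0.997), for *RARRES1* *MIB1* (0.971) and *ZNF592* (0.969), and for *DHRS3* *WNT4* (0.973) and *UGT8* (0.968). Each r is the highest found among these genes over 8 points, many of them at 0, and is given as a description.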
